A study of Homo sapiens with 9 samples.

Results

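RYR1, RND3, FSIP1 and MYH14 are 4 genes with higher scaled RNA counts in PIK3CA E545K MCF-10A cells than in both H1047R and WT cells. The counts of FSIP1 include reads shared with overlapping genes. They were chosen by their measured CPM in the 9 libraries, as higher in E545K than in both other genotypes, and for lying outside the other gene families considered, and no cutoff was stated. They are 4 of the 60609 genes counted, and all 4 are among the 26412 genes whose counts were high enough to be tested. Because levels in E545K chose them, their differences between E545K and either other genotype are given as descriptions with no test. The choice set no direction between H1047R and WT, and that difference was tested. Levels in H1047R and WT did enter the choice, so those p-values are not independent of it.

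MCF-10A is a non-tumorigenic human breast epithelial line, and PIK3CA encodes p110-alpha, the catalytic subunit of a PI 3-kinase. The study compared isogenic lines of 3 genotypes with 3 RNA libraries each: E545K, a change in the helical domain of p110-alpha, H1047R, a change in its kinase domain, and WT, the parental line. Both changes were knocked into the cells' own gene. Whether each knock-in line was a single clone is not stated in the labels. E545K and H1047R cells were kept without epidermal growth factor (EGF) and WT cells with 20 ng/ml EGF, all in 5% horse serum with insulin, hydrocortisone and cholera toxin. For the last 24 h every culture had 0.2 ng/ml EGF and 1% stripped serum. Mutation and EGF history therefore cannot be told apart in a comparison with WT. The E545K and WT counts stand in 1 table and the H1047R counts in another, so table and genotype cannot be told apart in a comparison with H1047R.

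Levels are CPM, the number of counts scaled to a fixed library size with TMM factors, with SD over 3 libraries. Total counts were 95533991 to 134245702 in E545K, 377093507 to 605972919 in H1047R and 95091894 to 136132315 in WT, and H1047R libraries varied most among themselves, with a biological coefficient of variation of 0.0286 in E545K, 0.216 in H1047R and 0.0328 in WT. PIK3CA itself had 39.1, 37.7 and 37.4 CPM in E545K, 42.4, 43.9 and 41.7 in H1047R and 43.9, 46.5 and 47.9 in WT, a level that does not check a knocked-in base change. By genotype mean, all 8 mammary epithelial markers reached 1 CPM in each genotype, and 0 of 6 skeletal muscle markers and 0 of 5 spermatogenic markers did. The summed skeletal muscle markers were 0.414 to 0.546 CPM in E545K, 0.374 to 0.471 in H1047R and 0.37 to 0.732 in WT. The spermatogenic sums were 0.241 to 0.308 CPM in E545K, 0.115 to 0.183 in H1047R and 0.163 to 0.265 in WT. Of other cell types, 2 of 5 fibroblast markers, 1 of 4 immune markers and 0 of 3 endothelial markers reached 1 CPM in each genotype. The fibroblast sums were 66.9 to 69.9 CPM in E545K, 69.5 to 85.8 in H1047R and 93.6 to 97.1 in WT. They rested on COL1A1, with 59.5 ± 1.47 CPM in E545K, 66.6 ± 7.45 in H1047R and 47.4 ± 0.523 in WT, and on DCN, with 7.76 ± 0.612, 13.1 ± 1.8 and 47 ± 1.69 CPM in E545K, H1047R and WT. COL1A2, PDGFRB and LUM, the other 3 fibroblast markers, stayed below 1 CPM. The immune sums, mostly CD68, were 6.69 to 7.37 CPM in E545K, 4.51 to 6.31 in H1047R and 10.9 to 11.2 in WT. Other genes share 85.6% of the exon bases of CD68, so its own RNA is uncertain. The endothelial sums were 0.548 to 0.701 CPM in E545K, 0.383 to 0.421 in H1047R and 0.782 to 1.08 in WT. The part of any other cell type in the results was not tested. In such bulk RNA, fewer cells with a transcript and less of it per cell cannot be told apart.

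The 4 genes act in different parts of the cell. RYR1 encodes the ryanodine receptor of skeletal muscle, a very large channel that lets calcium out of the sarcoplasmic or endoplasmic reticulum. Its relatives are RYR2 of heart, RYR3, and the IP3 receptors ITPR1 to ITPR3, which open to the IP3 made by phospholipase C. RND3, also called RhoE, is a small GTPase related to RhoA, Rac1 and Cdc42 that stays bound to GTP. It counters RhoA by binding the kinase ROCK1 and the RhoA-inactivating proteins ARHGAP5 and ARHGAP35, which loosens actin stress fibres. MYH14 encodes the heavy chain of non-muscle myosin IIC, beside MYH9 for IIA and MYH10 for IIB, and pulls on actin once ROCK or myosin light chain kinase has acted on its light chains. FSIP1 is named for its interaction with the fibrous sheath of the sperm tail.

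The genes lie on 3 chromosomes of hg38, in the spans of the counted annotation. RYR1 (ENSG00000196218.12) is at chr19:38433699-38587564 on the plus strand with 15965 exon bases, and MYH14 (ENSG00000105357.17) is at chr19:50188186-50310542 on the plus strand with 10390. RND3 (ENSG00000115963.13) is at chr2:150468195-150539011 on the minus strand with 3594 exon bases. FSIP1 (ENSG00000150667.8) is at chr15:39588357-39782841 on the minus strand with 3463. The sequences just before the RefSeq starts of RYR1, RND3 and MYH14 are shown because these 3 genes have promoter windows clear of other genes' exons, so a reader can set side by side the start regions of genes that share a high level in E545K. They are RefSeq sequence of GRCh38.p14, written 5′ to 3′ on the strand of the gene, and capitals mark matches to the motifs named after them.
RYR1 promoter: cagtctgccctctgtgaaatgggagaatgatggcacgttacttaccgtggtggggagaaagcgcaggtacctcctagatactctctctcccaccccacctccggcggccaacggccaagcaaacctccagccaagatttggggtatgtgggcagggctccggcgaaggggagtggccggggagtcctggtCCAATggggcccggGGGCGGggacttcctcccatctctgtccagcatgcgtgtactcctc
RND3 promoter: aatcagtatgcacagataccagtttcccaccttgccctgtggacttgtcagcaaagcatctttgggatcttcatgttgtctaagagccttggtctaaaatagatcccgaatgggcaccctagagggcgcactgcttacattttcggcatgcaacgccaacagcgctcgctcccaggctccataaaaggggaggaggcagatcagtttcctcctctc
MYH14 promoter: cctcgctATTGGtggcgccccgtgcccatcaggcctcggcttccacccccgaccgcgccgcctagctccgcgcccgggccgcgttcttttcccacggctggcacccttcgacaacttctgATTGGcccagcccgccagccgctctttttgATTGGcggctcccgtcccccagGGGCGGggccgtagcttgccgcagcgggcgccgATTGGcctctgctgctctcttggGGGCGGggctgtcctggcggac
The RYR1 window is chr19:38433441-38433690 on the plus strand, the RND3 window chr2:150487730-150487945 on the minus strand and the MYH14 window chr19:50203372-50203621 on the plus strand. Each begins 250 bases before the RefSeq start. RYR1 and MYH14 are shown up to that start, and RND3 is shown without the last 34 bases, which lie in an annotated RND3 exon. The MYH14 and RND3 windows lie inside the annotated spans of their own genes. The windows differ in base composition, with 62.4% G and C in RYR1, 51.4% in RND3 and 71.6% in MYH14, and a median of 58% over 27305 RefSeq windows of 250 bases.

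The windows were searched on both strands for 8 short motifs. The core promoter motifs were the TATA box with the letters TATAAA, the CCAAT box with the letters CCAAT and the GC box with the letters GGGCGG. The factor motifs were the CRE with the letters TGACGTCA, the AP-1 motif with the letters TGANTCA, where N is any base, and the FOXO motif with the letters TGTTTAC. The TEAD motif was searched as GGAATG and the E-box as CACGTG. RYR1 held 1 CCAAT, 60 to 56 bases before the start, and 1 GC box, 46 to 41 bases before it. MYH14 held 4 CCAAT, all on the opposite strand where they read as ATTGG, at 243 to 239, 130 to 126, 100 to 96 and 45 to 41 bases before the start. It also held 2 GC boxes, at 78 to 73 and 22 to 17 bases before the start. The RND3 window of 216 bases held 0 matches to the 8 motifs, which says only that these letters are not in this stretch. No match overlapped another. Of all 250-base windows 33% held CCAAT, 42.3% the GC box, 11.1% TATAAA, 1.77% the CRE, 6.6% AP-1, 2.98% the FOXO letters, 11.9% the TEAD letters and 6.49% the E-box, so the 2 motifs found are common ones. These are descriptions of letters and not of bound sites.

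**Figure D1:**
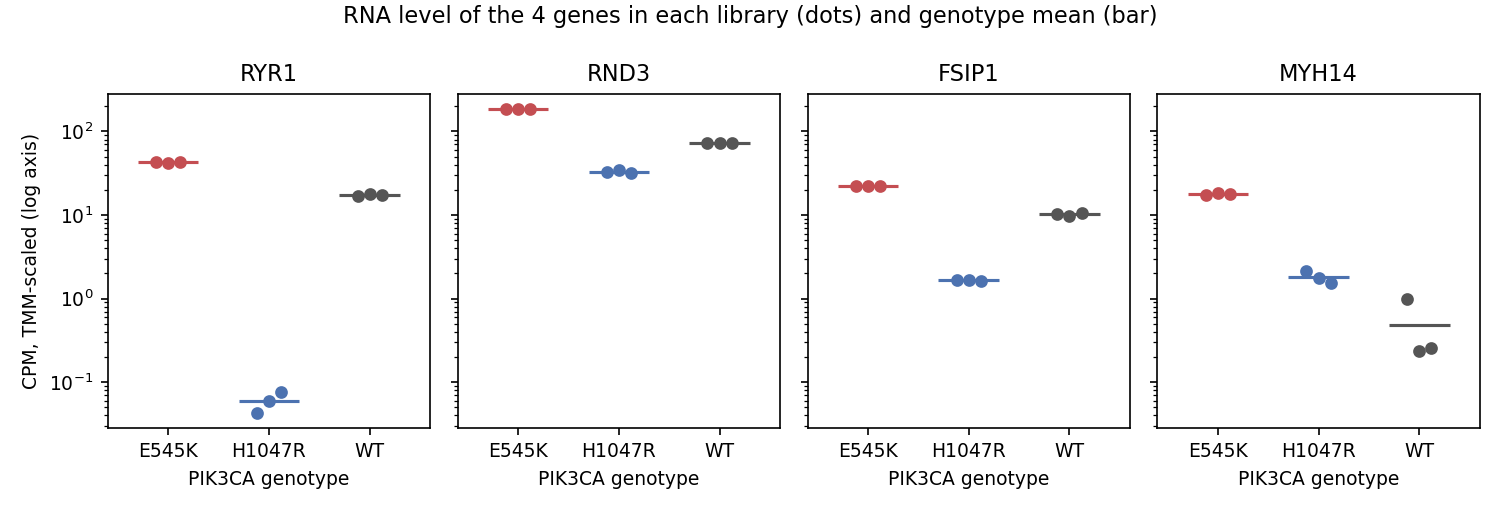
CPM (log axis, shared by the 4 panels) of RYR1, RND3, FSIP1 and MYH14 in each library of E545K, H1047R and WT, with dots for libraries and a bar for the genotype mean. Dots of the 3 genotypes do not overlap in any panel, H1047R is lowest for RYR1, RND3 and FSIP1, and WT is lowest for MYH14, where 1 WT library lies above the other two.

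RYR1 RNA was plentiful in E545K, intermediate in WT and almost absent in H1047R. It had 43.1, 42.2 and 42.5 CPM in E545K libraries and 0.0432, 0.0589 and 0.0768 CPM in H1047R libraries. WT libraries had 17, 17.9 and 17.5 CPM. Within a genotype the E545K and WT libraries were close, with coefficients of variation of 1.09% and 2.4%, and the genotypes did not overlap. The choice favoured genes with E545K set apart, here and for RND3, FSIP1 and MYH14. The share of all genes without overlap is not given. Lack of overlap in all 3 comparisons was also seen outside the 4 genes, RHOA, MYH9 and ITPR3 among them. It therefore does not mark out the 4 genes. The mean of 42.6 ± 0.465 CPM in E545K was 2.44 times the 17.5 ± 0.42 CPM in WT and 715 times the 0.0596 ± 0.0169 CPM in H1047R. On the log2 scale the fitted differences were 1.29 ± 0.06 (SE) for E545K against WT and 9.43 ± 0.09 for E545K against H1047R. The H1047R level rested on 15, 34 and 40 counts in the deepest libraries of the series, each above the 3 counts that a count of 0 would allow.

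The difference in RYR1 between H1047R and WT, whose direction the choice did not set, was −8.14 ± 0.09 on the log2 scale (edgeR quasi-likelihood test, adjusted p = 8.72e-17). Of all genes tested, 55.5% were called between these genotypes and 28.1% were called lower in H1047R. DESeq2 gave −8.15 ± 0.16 for RYR1 here, so the SE of 0.09 may be too small. Per kilobase of exon, RYR1 had 2.67 CPM in E545K, 0.00374 in H1047R and 1.09 in WT. A non-coding gene, ENSG00000269445, shares 287 of its exon bases, or 1.8%, and had 0.00949 CPM in E545K and 0 in H1047R and WT, so its share of RYR1 counts was negligible.

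The other calcium-release channels went against RYR1 in H1047R, since each of the other 5 was called higher in H1047R than in WT. RYR2 had 3.59 ± 0.236 CPM in E545K, 3.02 ± 0.229 in H1047R and 1.83 ± 0.111 in WT. It was higher in E545K than in WT by 0.97 ± 0.11 on the log2 scale (edgeR adjusted p = 4.93e-06), and higher in H1047R than in WT by 0.72 ± 0.11 (adjusted p = 3.39e-05). RYR3 had 3.18 ± 0.268 CPM in E545K, 4.56 ± 1.27 in H1047R and 2.83 ± 0.365 in WT, and was not called between E545K and WT (0.17 ± 0.17, edgeR adjusted p = 0.495). RYR3 was lower in E545K than in H1047R (−0.52 ± 0.16, edgeR adjusted p = 0.0136). The IP3 receptors, like RYR3 and unlike RYR2, were highest in H1047R. ITPR1 had 6.39 ± 0.393 CPM in E545K, 13.7 ± 0.73 in H1047R and 4.21 ± 0.273 in WT, with a log2 difference of 1.70 ± 0.07 for H1047R against WT (edgeR adjusted p = 6.35e-11). ITPR2 had 50.3 ± 1.16, 72.9 ± 5.11 and 41.4 ± 1.22 CPM in E545K, H1047R and WT. ITPR3, the most abundant of the family per kilobase in every genotype, had 506 ± 3.95, 661 ± 26.9 and 385 ± 2.42 CPM in E545K, H1047R and WT.

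**Figure D2:**
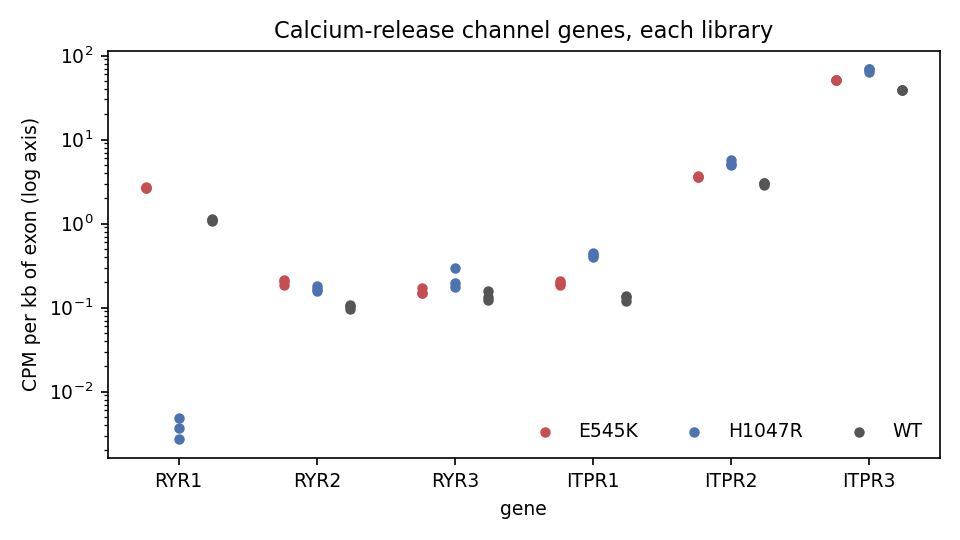
CPM per kilobase of exon (log axis) of the ryanodine and IP3 receptor genes in each library of E545K, H1047R and WT, where each dot is a library. RYR1 reaches 2.67 in E545K and 1.09 in WT, above RYR2 and RYR3, and falls to 0.00374 in H1047R, the lowest values plotted.

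Compared per kilobase, RYR1 was the leading ryanodine receptor gene in E545K and WT. In E545K its 2.67 CPM per kilobase stood above 0.201 for RYR2 and 0.156 for RYR3, and below 3.62 for ITPR2 and 51.3 for ITPR3. In H1047R its 0.00374 CPM per kilobase stood below 0.169 for RYR2 and 0.224 for RYR3. In WT the same comparison gave 1.09 for RYR1, 0.102 for RYR2 and 0.139 for RYR3. In the plot of channel genes the spread between genotypes is widest for RYR1.

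Genes for calcium release and for filling the store moved in both directions. The list of 37 genes, which leaves out RYR1, had 33 tested. In E545K against WT 12 were higher and 6 lower, with a median log2 difference of 0.15 beside 0.00 over all genes tested, where 17.7% were called higher and 18.9% lower, 36.6% together. In E545K against H1047R 12 were higher and 9 lower (median 0.09, all genes −0.02, with 53.2% of all genes called, 27.3% higher and 25.9% lower). In H1047R against WT 14 were higher and 12 lower (median 0.10, all genes 0.02, with 27.4% of all genes called higher and 28.1% lower). TMEM38B, a potassium channel of the store membrane, had 13.6 ± 0.201 CPM in E545K, 8.64 ± 0.718 in H1047R and 7.98 ± 0.706 in WT, and rose in E545K against WT by 0.76 ± 0.08 on the log2 scale (edgeR adjusted p = 1.75e-06). Its relative TMEM38A rose in H1047R against WT by 0.95 ± 0.09 (adjusted p = 2.04e-07). ORAI1, the store-operated channel of the cell membrane, was higher in E545K than in H1047R by 0.63 ± 0.06 (adjusted p = 1.12e-06).

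Genes of the list that fell included regulators and pumps. SELENON, a selenoprotein needed for ryanodine receptor function, had 86.8 ± 0.358 CPM in E545K, 54.6 ± 2.75 in H1047R and 125 ± 1.84 in WT, with log2 differences of −0.52 ± 0.04 in E545K and −1.19 ± 0.04 in H1047R against WT (edgeR adjusted p = 1.43e-07 and 6.08e-12). ASPH, whose locus also encodes junctin, a partner of ryanodine receptors, had 249 ± 2.43, 185 ± 15.1 and 349 ± 3.73 CPM in E545K, H1047R and WT. ATP2A3, a calcium pump of the reticulum, was scarce, with 0.344 ± 0.127, 0.233 ± 0.138 and 1.44 ± 0.525 CPM in E545K, H1047R and WT. It was lower in both knock-in lines than in WT, with edgeR adjusted p = 0.00106 for E545K and 4.37e-05 for H1047R. The muscle partners TRDN, CASQ1, CASQ2 and SLN had too few counts to be tested. CACNA1S, the voltage sensor that opens RYR1 in skeletal muscle, had 0.0896 ± 0.0564 CPM in E545K, 0.0214 ± 0.00727 in H1047R and 0.0897 ± 0.0157 in WT.

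RND3 was the most abundant of the 4 genes per kilobase, again highest in E545K and lowest in H1047R. It had 186, 183 and 187 CPM in E545K libraries, 32.8, 34.6 and 31.8 in H1047R libraries and 73.5, 71.8 and 71.7 in WT libraries. The 3 libraries of each genotype lay close together and the genotypes did not overlap. Its mean of 185 ± 1.89 CPM in E545K was 2.56 times the 72.3 ± 0.963 CPM in WT and 5.61 times the 33.1 ± 1.39 CPM in H1047R. The fitted log2 differences were 1.36 ± 0.04 for E545K against WT and 2.49 ± 0.04 for E545K against H1047R. In the tested comparison RND3 fell by 1.13 ± 0.04 on the log2 scale in H1047R against WT (edgeR adjusted p = 7.07e-12). Its level per kilobase of exon was 51.6 CPM in E545K, 9.2 in H1047R and 20.1 in WT, and no other counted gene shares its exon bases.

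Its closest relatives were scarce. RND1 had 0.245 ± 0.142 CPM in E545K, 0.3 ± 0.00986 in H1047R and 0.305 ± 0.0581 in WT. RND2 had 0.175 ± 0.0484, 0.198 ± 0.0556 and 0.123 ± 0.0882 CPM in E545K, H1047R and WT, and neither gene was called in any of the 3 comparisons. The smallest edgeR adjusted p of the pair was 0.328, for RND2 in H1047R against WT. RND3 thus supplied nearly all Rnd-class RNA of these cells, with 51.6 CPM per kilobase in E545K beside 0.062 for RND1 and 0.0402 for RND2.

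Among 19 other genes of this GTPase family, 17 were tested, and 6 were higher and 5 lower in E545K than in WT (median 0.04), beside 17.7% and 18.9% of all tested genes. RHOV, an atypical Cdc42-like GTPase, changed most, with 80.4 ± 1.91 CPM in E545K, 37.6 ± 3.16 in H1047R and 19.5 ± 0.119 in WT. Its log2 difference was 2.04 ± 0.06 for E545K against WT (edgeR adjusted p = 1.93e-12) and 0.95 ± 0.05 for H1047R against WT (adjusted p = 1.42e-09). RHOBTB1, an atypical member with a BTB domain, had the order of RND3, with 3.01 ± 0.136, 0.736 ± 0.0943 and 1.49 ± 0.2 CPM in E545K, H1047R and WT. RAC1, which drives membrane ruffles, had 366 ± 3.77, 225 ± 14.3 and 245 ± 3.04 CPM in E545K, H1047R and WT. RHOA, the GTPase that RND3 counters, had 349 ± 0.882 CPM in E545K, 306 ± 23.4 in H1047R and 417 ± 0.508 in WT, with log2 differences of −0.25 ± 0.05 in E545K and −0.45 ± 0.05 in H1047R against WT (edgeR adjusted p = 6.67e-04 and 1.44e-06).

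In the other comparisons of this family, 10 genes were higher and 3 lower in E545K than in H1047R (median 0.14), beside 27.3% and 25.9% of all tested genes. In H1047R against WT 5 were higher and 9 lower (median −0.12), beside 27.4% and 28.1%. RAC2 was higher in E545K than in H1047R by 0.72 ± 0.06 (edgeR adjusted p = 1.54e-07). RHOU and RHOB were lower there, with log2 differences of −1.21 ± 0.08 and −0.60 ± 0.04 (adjusted p = 4.65e-09 and 7.6e-09). RAC3 fell in E545K against WT by 0.93 ± 0.06 on the log2 scale (adjusted p = 2.2e-08). RHOF had 31.8 ± 0.321, 27.7 ± 0.394 and 65.7 ± 1.36 CPM in E545K, H1047R and WT, but 71% of its exon bases are shared with other genes, so its own RNA is uncertain.

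The direct partners of RND3 changed little between E545K and WT. ARHGAP35, which RND3 recruits against RhoA, had 174 ± 2.78 CPM in E545K, 221 ± 2.74 in H1047R and 175 ± 1.64 in WT, with a log2 difference of −0.01 ± 0.04 for E545K against WT (edgeR adjusted p = 0.814) and 0.33 ± 0.04 for H1047R against WT (adjusted p = 1.07e-06). ARHGAP5 gave 0.01 ± 0.04 and 0.50 ± 0.04 in the same comparisons (edgeR adjusted p = 0.91 and 3.4e-08), with 36% of its exon bases shared with other genes. ROCK1 had 113 ± 3.1, 114 ± 3.47 and 123 ± 2.4 CPM in E545K, H1047R and WT. It was slightly lower in both knock-in lines than in WT, with log2 differences of −0.13 ± 0.04 in E545K and −0.11 ± 0.04 in H1047R (edgeR adjusted p = 0.017 and 0.0267).

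Over the list of 17 RND3 partners and RhoA effectors or regulators, 2 were higher and 9 lower in E545K than in WT (median −0.13), beside 17.7% and 18.9% of all tested genes. The 2 that rose were ECT2, an exchange factor of cytokinesis (0.38 ± 0.06, edgeR adjusted p = 2.34e-04), and LIMK1, the kinase that ROCK activates against cofilin (0.16 ± 0.04, adjusted p = 0.00564). Without E545K replicate 2 the number higher was 1. Those that fell included the exchange factor ARHGEF2 (−0.57 ± 0.05, adjusted p = 3.64e-07) and the actin-severing cofilin CFL1 (−0.44 ± 0.06, adjusted p = 3.07e-05).

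Against H1047R, 7 of the 17 were higher in E545K and 6 lower (median 0.01), beside 27.3% and 25.9% of all tested genes. CIT, the citron kinase of cytokinesis, had 18.2 ± 0.418 CPM in E545K, 4.97 ± 0.203 in H1047R and 17.6 ± 0.503 in WT, and the formin DIAPH3 had 20.7 ± 0.671, 7.59 ± 1.04 and 19.7 ± 0.195. Both were lower in H1047R than in WT (log2 −1.83 ± 0.05 and −1.38 ± 0.08, edgeR adjusted p = 9.58e-13 and 9.7e-10). In H1047R against WT, 5 of the 17 were higher and 11 lower (median −0.23), beside 27.4% and 28.1% of all tested genes. The exchange factor ARHGEF12 and the semaphorin receptor PLXNB1 were higher in H1047R than in WT, by 0.53 ± 0.04 and 0.41 ± 0.05 (adjusted p = 1.07e-08 and 4.04e-06).

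MYH14 differed from the other 3 genes in that WT, and not H1047R, was lowest. It had 17.4, 18.3 and 17.6 CPM in E545K libraries and 2.13, 1.78 and 1.55 in H1047R libraries. WT libraries had 0.981, 0.233 and 0.255 CPM, from 132, 22 and 24 counts. The genotypes did not overlap, but WT replicate 1 lay well above the other two WT libraries. The mean of 17.8 ± 0.478 CPM in E545K was 36.3 times the 0.489 ± 0.426 CPM in WT and 9.76 times the 1.82 ± 0.292 CPM in H1047R. The fitted log2 differences were 5.05 ± 0.29 for E545K against WT, or 6.18 without WT replicate 1, and 3.29 ± 0.23 for E545K against H1047R.

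In the tested comparison MYH14 was higher in H1047R than in WT by 1.76 ± 0.30 on the log2 scale (edgeR adjusted p = 1.55e-04), 3.72 times by the means. Without WT replicate 1 the log2 difference was 2.89 (adjusted p = 4.09e-08), and without WT replicate 2 or 3 it was 1.45 or 1.47 (adjusted p = 0.00108 and 0.00121). DESeq2 on all libraries gave 1.88 ± 0.54 (DESeq2 adjusted p = 0.00132), with a wider SE. WT replicate 1 stood apart for a few genes. With a level of at least 0.5 CPM, 25 of the 26412 tested genes were over 3 times as high in it as in each of the other two WT libraries, and 0 genes were so in WT replicate 2 or in WT replicate 3. MYH14 is 1 of the 25. PRLR, the prolactin receptor, chosen as an example after its values were seen, is another, with 1.84, 0.222 and 0.244 CPM in the WT libraries. The part of this library's difference in the MYH14 result beyond the values without it was not tested.

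Per kilobase of exon, MYH14 had 1.71 CPM in E545K, 0.175 in H1047R and 0.0471 in WT. The mean of WT replicates 2 and 3 was 0.0234 CPM per kilobase, somewhat above the 6 scarce muscle myosin genes given next. Of the other listed muscle myosins, MYH3, MYH11, MYH15 and MYH7B stood higher in WT, at 0.0466, 0.0454, 0.0497 and 0.462. MYH13 stood lower, at 0.00975. MYH1, MYH2, MYH4, MYH6, MYH7 and MYH8 had 0.00957 to 0.0148 CPM per kilobase in E545K and 0.0122 to 0.0161 in WT. In H1047R they had 0 to 0.000575, from 0 to 6 counts per gene in all 3 libraries together. H1047R libraries thus held fewer counts of these 6 genes in spite of their larger totals, and the RYR1 level of 0.00374 CPM per kilobase in H1047R lay above that range. A non-coding gene, ENSG00000267815, shares 457 exon bases with MYH14, or 4.4%, and had 1.31, 0.101 and 0.0343 CPM in E545K, H1047R and WT, the order of MYH14.

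The major non-muscle myosin heavy chains did not rise with MYH14. MYH9 had 1209 ± 24.9 CPM in E545K, 1116 ± 32.4 in H1047R and 2284 ± 24.4 in WT, and fell in both knock-in lines against WT, with log2 differences of −0.92 ± 0.04 in E545K and −1.03 ± 0.04 in H1047R (edgeR adjusted p = 8.76e-11 and 7.31e-12). MYH10 had 102 ± 2.47, 86.3 ± 3.48 and 106 ± 1.35 CPM in E545K, H1047R and WT, and was not called between E545K and WT (−0.05 ± 0.04, adjusted p = 0.346). Per kilobase in E545K, MYH14 had 1.71 CPM beside 134 for MYH9 and 11.4 for MYH10, so it remained the scarcest of the 3 heavy chains where it was highest.

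**Figure D3:**
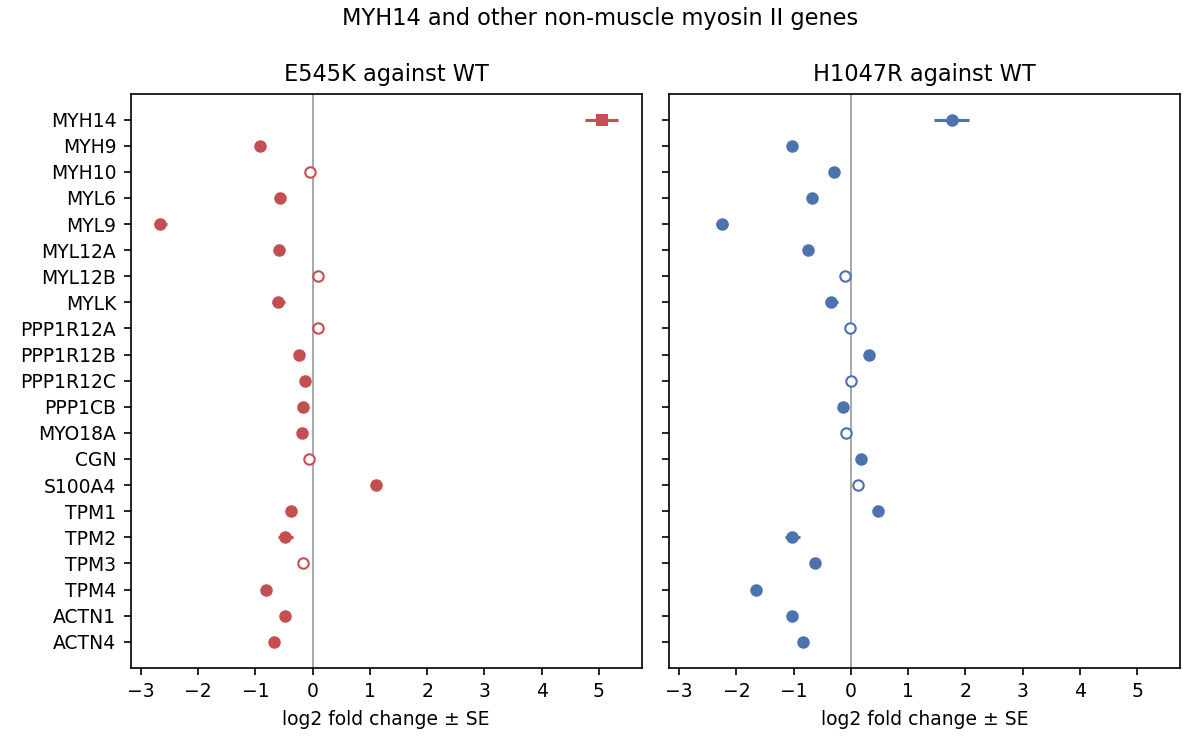
Log2 fold change with SE (x axis) of MYH14 and the 20 genes for non-muscle myosin II and its regulators, for E545K against WT (left) and H1047R against WT (right). Filled circles passed an adjusted p of 0.05, open circles did not, and the square marks MYH14 in E545K, which was not tested. MYH14 lies at 5.05 and 1.76, MYH9 at −0.92 and −1.03, and MYL9 at −2.66 and −2.25.

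Of the 20 listed genes for non-muscle myosin II and its regulators, MYH14 left out, 1 was higher and 14 were lower in E545K than in WT (median −0.30), beside 17.7% of all tested genes called higher and 18.9% lower. The 1 higher was S100A4, a calcium-binding protein that binds myosin IIA filaments, with 21.3 ± 0.164 CPM in E545K, 10.8 ± 1.31 in H1047R and 9.88 ± 0.916 in WT (E545K against WT 1.11 ± 0.08, edgeR adjusted p = 7.79e-08). The number higher was 3 without H1047R replicate 1 or without H1047R replicate 3, which enter through the shared spread. MYL9, a regulatory light chain, fell most, to 4.24 ± 0.256 CPM in E545K and 5.68 ± 1.05 in H1047R, against 26.9 ± 1.43 in WT. TPM4, a tropomyosin of stress fibres, had 395 ± 2.03, 223 ± 18.9 and 700 ± 6.35 CPM in E545K, H1047R and WT. The plot of myosin genes sets these falls beside MYH14. The fibroblast marker DCN was also lower in both knock-in lines than in WT (log2 −2.60 in E545K and −1.85 in H1047R, edgeR adjusted p = 2.1e-11 and 1.05e-10). COL1A1 was higher in both (0.33 in E545K and 0.49 in H1047R, adjusted p = 0.000907 and 1.01e-05), and the part of fibroblast-like RNA in these falls was not tested.

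In H1047R against WT 3 of the 20, namely TPM1, PPP1R12B and CGN, were higher and 12 lower (median −0.32), beside 27.4% and 28.1% of all tested genes. Between E545K and H1047R, 10 were higher and 6 lower in E545K (median 0.11), beside 27.3% and 25.9% of all tested genes. Among the higher ones were TPM4, ACTN1 and S100A4 with log2 differences of 0.83 ± 0.05, 0.55 ± 0.04 and 0.99 ± 0.08 (edgeR adjusted p = 3.9e-09, 1.52e-08 and 8.94e-08). Of 11 muscle myosin heavy chains 10 were tested. Between E545K and WT, where 36.6% of all tested genes were called, edgeR called 0 of them, with 1 at an unadjusted p under 0.05, and DESeq2 called 0. By edgeR 7 were higher in E545K, and 7 lower in H1047R, in the comparisons of E545K against H1047R and of H1047R against WT, beside 27.3% and 28.1% of all tested genes. The list's medians there were 4.36 and −4.65. With the 4 genes of 0 counts in H1047R set to a floor of 3 counts over the 3 libraries, they were 4.36 and −4.64. Both medians lie between MYH6 and MYH1, which had counts in H1047R, so this floor could not move them. It is no check on the size of the differences of the 4 genes. The number lower in E545K than in H1047R was 0, or 1 without WT replicate 1 or WT replicate 2. By genotype mean, MYH7B was the only one of the 11 to reach 1 CPM, with 4.22 ± 0.265 CPM in E545K, 3.34 ± 0.183 in H1047R and 3.66 ± 0.0958 in WT.

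FSIP1 counts followed RYR1 and RND3 in order. They gave 22.4, 22.2 and 22.1 CPM in E545K libraries, 1.68, 1.69 and 1.61 in H1047R libraries and 10.3, 9.68 and 10.6 in WT libraries. Libraries of a genotype were close and genotypes did not overlap. The mean of 22.2 ± 0.149 CPM in E545K was 2.18 times the 10.2 ± 0.478 CPM in WT and 13.4 times the 1.66 ± 0.0443 CPM in H1047R, with fitted log2 differences of 1.12 ± 0.06 and 3.74 ± 0.06. In H1047R against WT the counts fell by 2.62 ± 0.06 on the log2 scale (edgeR adjusted p = 5.99e-14). These counts cannot be read as FSIP1 RNA alone. Some of its exons overlap exons of THBS1 on the other strand, strand was not used in counting, and a read in exons of several genes was counted for each.

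THBS1 encodes thrombospondin-1, a secreted glycoprotein of the matrix, and lies at chr15:39581079-39599466 on the plus strand. It shares 448 exon bases with FSIP1, which is 12.9% of the exon bases of FSIP1 and 4.89% of the 9158 of THBS1, in 3 of the 16 merged FSIP1 exons. The shared pieces are chr15:39588357-39588472, chr15:39588526-39588574, chr15:39593580-39593683 and chr15:39594055-39594233. With 3 non-coding genes, among them THBS1-AS1, 26% of FSIP1's exon bases are shared. THBS1-AS1 shares 218 of them and had 13.6, 0.991 and 6.48 CPM in E545K, H1047R and WT, the order of FSIP1. THBS1 was far more abundant, with 235, 231 and 233 CPM in E545K, 16.5, 14.1 and 12 in H1047R and 102, 99.8 and 100 in WT, and had the same order of genotypes. Its log2 differences were 1.21 ± 0.08 for E545K against WT, 4.04 ± 0.09 for E545K against H1047R and −2.83 ± 0.08 for H1047R against WT (edgeR adjusted p = 1.24e-08, 6.45e-14 and 7.78e-13).

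**Figure D4:**
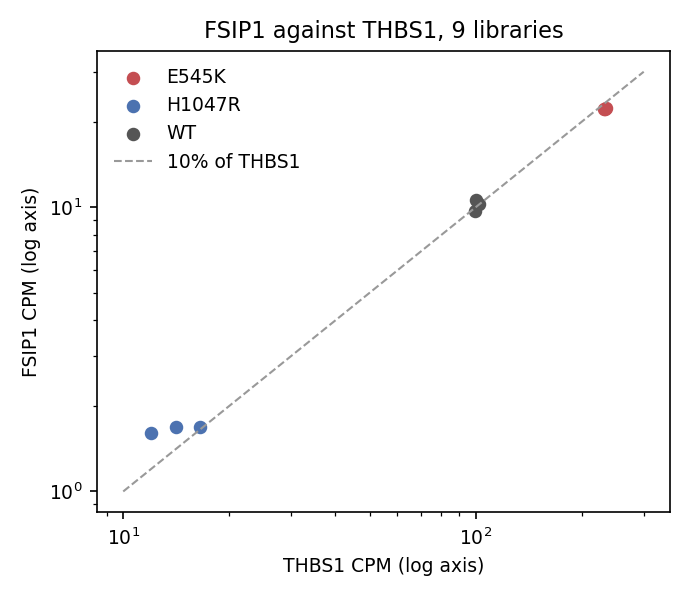
FSIP1 CPM against THBS1 CPM (both log axes) in the 9 libraries, with E545K, H1047R and WT by colour and a dashed line at 10% of THBS1. The ratio of FSIP1 to THBS1 runs from 9.47% in an E545K library to 13.4% in an H1047R library. H1047R replicates 2 and 3, at 12% and 13.4%, lie farthest from the line.

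The plot of FSIP1 against THBS1 shows both genes' CPM in each library. As a percentage of THBS1 CPM, FSIP1 CPM was 9.53%, 9.6% and 9.47% in E545K, 10.2%, 12% and 13.4% in H1047R and 10.1%, 9.71% and 10.6% in WT. The ratio differed little among E545K and WT libraries and varied most in H1047R, where THBS1 was 16.5, 14.1 and 12 CPM and FSIP1 1.68, 1.69 and 1.61. If THBS1 reads were spread evenly over its exons, the shared bases would hold 11.3 to 11.5 CPM of THBS1 in E545K, 0.588 to 0.807 in H1047R and 4.88 to 5.01 in WT. FSIP1 counts were 1.94 to 2.74 times those amounts, which leave out reads shared with THBS1-AS1. Reads of 150 bases that touch a shared piece count for both genes, which widens the shared stretch, and the tables give no counts per exon. How much of the FSIP1 counts came from FSIP1 RNA was therefore not tested.

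Other genes of the sperm fibrous sheath were scarce. Of 10 listed, 7 were tested, with 1 higher and 1 lower in E545K against WT (median −0.08), beside 17.7% and 18.9% of all tested genes. In E545K against H1047R 1 was higher and 1 lower (median 0.21), beside 27.3% and 25.9%, and in H1047R against WT 2 were higher and 1 lower (median −0.18), beside 27.4% and 28.1%. FSIP2, named like FSIP1, had 0.841 ± 0.121 CPM in E545K, 1.74 ± 1.16 in H1047R and 0.649 ± 0.0614 in WT. CABYR, a calcium-binding protein of the sheath, had 5.04 ± 0.442, 4.35 ± 0.139 and 3.39 ± 0.216 CPM in E545K, H1047R and WT, and rose in E545K against WT by 0.57 ± 0.09 (edgeR adjusted p = 1.75e-04). SPA17 had 4.58 ± 0.138, 3.53 ± 0.236 and 5.62 ± 0.159 CPM and fell in E545K against WT (−0.30 ± 0.08, edgeR adjusted p = 0.00965). The number lower in E545K than in H1047R was 0 without E545K replicate 1 or E545K replicate 3, and 2 without E545K replicate 2, H1047R replicate 1, WT replicate 2 or WT replicate 3. The number higher there was 2 without E545K replicate 1 or H1047R replicate 1, and the number lower in E545K than in WT was 2 without H1047R replicate 1.

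Across the 9 libraries the 4 genes fell into 2 patterns, as described by Pearson's r of log2 CPM. RYR1, RND3 and FSIP1 ran together, with r of 0.984 for RYR1 and FSIP1, 0.961 for RND3 and FSIP1 and 0.898 for RYR1 and RND3. MYH14 had r of 0.620 with RND3, 0.389 with FSIP1 and 0.227 with RYR1. The 9 points form 3 tight genotype groups and share their libraries' depth, so each r restates the order and spacing of 3 genotype means.

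The pattern E545K above WT above H1047R was not the only one among genes high in E545K. In both comparisons together, 2061 genes, or 7.8% of those tested, were higher in E545K than in WT and in H1047R, and 325 genes, or 1.23%, by at least 2-fold in each. Of the 325, 60 were lower in H1047R than in WT, 71 were higher and 194 were not called. Among 58 of them with at least 10 CPM in E545K, those numbers were 22, 26 and 10. Ranked by the smaller of the log2 differences to the other genotypes, MYH14 stood in place 2 of the 58, RND3 in 26, RYR1 in 27 and FSIP1 in 44. By level in E545K, RND3 stood in place 10, RYR1 in 27, FSIP1 in 39 and MYH14 in 45. These places describe the choice of the 4 genes and are no result about them.

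The genes most like each member were sought among 12268 tested genes with at least 5 CPM in E545K. For RYR1 they were ENSG00000275993 (r = 0.9979), NKX2-5, ITPRIP, EYA2 and GSDME, all with r of at least 0.9965. These genes matched RYR1 in the shape of the pattern and not in its size. EYA2, a transcriptional coactivator, had 8.45 ± 0.175 CPM in E545K, 1.92 ± 0.249 in H1047R and 6.97 ± 0.561 in WT, and GSDME, a gasdermin that forms pores in the cell membrane, had 88.4 ± 2.42, 30.5 ± 1.17 and 75.1 ± 1.21 CPM. ENSG00000275993 is annotated as an artifact in the names used here, and no role is given to it.

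For RND3 the most alike were MIR4260 (r = 0.9984), WNT5B, ZDHHC4, LAMB3 and TTF2. LAMB3, a chain of the basement membrane protein laminin-332, had 1096 ± 14.7 CPM in E545K, 388 ± 19.4 in H1047R and 678 ± 2.36 in WT. MIR4260 has 67 bases, lies within the annotated span of LAMB3 and shares 8.96% of its bases with exons of other genes. A read that touches a shared base is counted for each gene. The reads are longer than MIR4260, so this percentage does not bound the sharing. MIR4260 had 45.5 ± 0.246 CPM in E545K, 16.8 ± 0.657 in H1047R and 26.8 ± 0.939 in WT, the order of LAMB3. Its own RNA is therefore uncertain, and the part of LAMB3 reads in its counts was not tested. WNT5B, a secreted Wnt ligand, had 5.92 ± 0.193, 1.99 ± 0.116 and 3.29 ± 0.257 CPM in E545K, H1047R and WT.

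For FSIP1 they were LBR (r = 0.9986), THBS1 (r = 0.9983), ANLN, PHGDH and UPP1. ANLN, the actin-binding anillin of the cleavage furrow, came nearest in size after THBS1, with 93.1 ± 0.855 CPM in E545K, 11.3 ± 1.19 in H1047R and 45.5 ± 0.854 in WT. For MYH14 they were NRCAM (r = 0.9853), PHLDA1-AS1, YAE1, PPARG and PLA2G4A. Other genes share 97.2% of the exon bases of PHLDA1-AS1 and 26.3% of those of YAE1. Their own RNA is therefore uncertain, above all that of PHLDA1-AS1. NRCAM, a cell adhesion molecule, had 16.8 ± 0.506, 9.67 ± 1.33 and 6.06 ± 0.808 CPM in E545K, H1047R and WT. PPARG, a nuclear receptor of lipid metabolism, had 6.07 ± 0.26, 3.46 ± 0.363 and 2.83 ± 0.372 CPM, so these genes had the order of MYH14 with a smaller range.

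Of the tested protein-coding neighbours of the 4 genes, THBS1 was the only one called higher in E545K than in both H1047R and WT. Beside RYR1, MAP4K1 lies on the minus strand, with its own end 76 bases past the end of RYR1. MAP4K1 had 0.207 ± 0.0501 CPM in E545K, 0.181 ± 0.051 in H1047R and 0.165 ± 0.0866 in WT. It had no call between genotypes (smallest edgeR adjusted p = 0.61). EIF3K, 31517 bases away, had 137 ± 1.43, 107 ± 8.16 and 143 ± 3.67 CPM in E545K, H1047R and WT. On the other side, RASGRP4 and FAM98C were lower in E545K than in WT, with log2 differences of −0.73 ± 0.22 and −0.39 ± 0.06 (adjusted p = 0.0169 and 1.08e-04).

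The nearest protein-coding neighbour of RND3, RBM43, is 708928 bases away. RBM43, NMI and MMADHC differed between E545K and WT by −0.01 to 0.18 on the log2 scale. LYPD6, 994056 bases away, was lower in H1047R than in WT (log2 −1.92 ± 0.11, edgeR adjusted p = 1.07e-09), and had 2.9 ± 0.206 CPM in E545K, 0.961 ± 0.0239 in H1047R and 3.63 ± 0.262 in WT. Of the MYH14 neighbours, NR1H2 and ZNF473 differed by −0.16 ± 0.04 and −0.03 ± 0.08 between E545K and WT.

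Beside FSIP1, GPR176 lies 16190 bases away with 2.07 ± 0.205 CPM in E545K, 2.02 ± 0.185 in H1047R and 2.12 ± 0.373 in WT, and was not called in any comparison (smallest edgeR adjusted p = 0.693). EIF2AK4, the kinase that senses amino acid shortage, was lower in H1047R than in WT (log2 −0.53 ± 0.04, adjusted p = 1.73e-08) and had 89.8 ± 1.36, 70.3 ± 2.06 and 101 ± 1.93 CPM in E545K, H1047R and WT. The plot of neighbouring genes shows FSIP1 beside THBS1 in both comparisons with WT, and LYPD6 lower in H1047R than in WT like RND3.

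**Figure D5:**
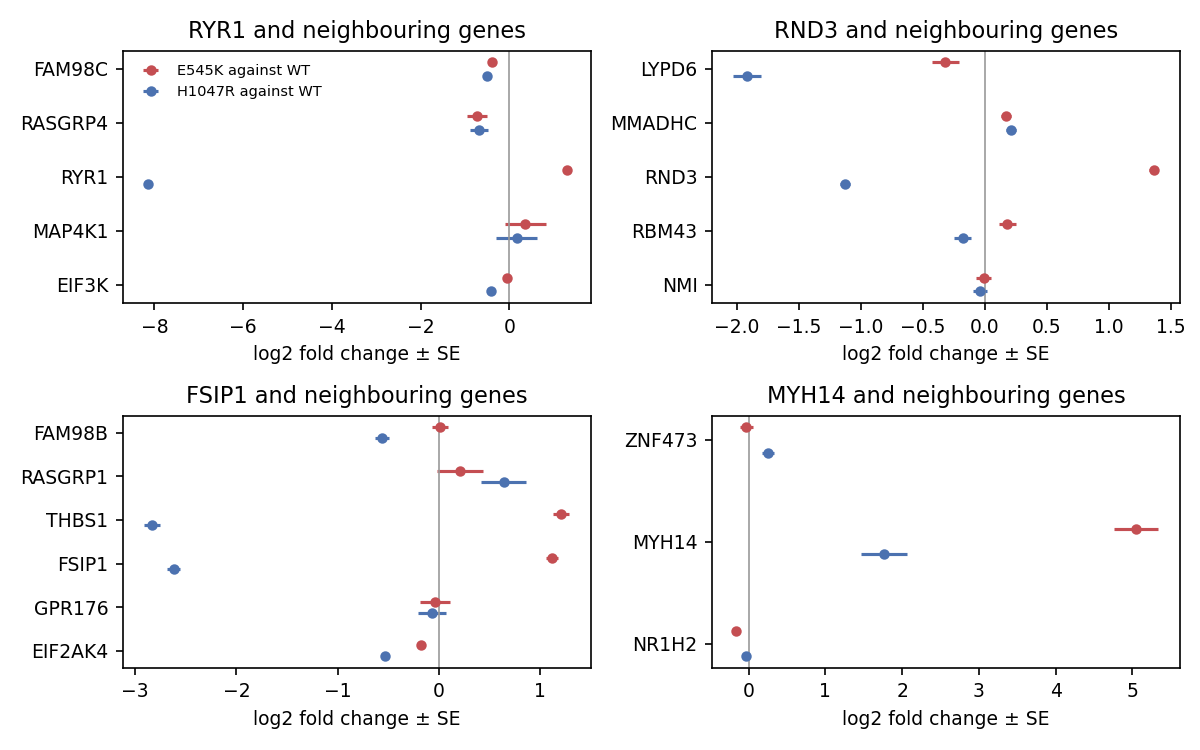
Log2 fold change with SE (x axis) of each of the 4 genes and of their tested protein-coding neighbours in chromosomal order from top to bottom, for E545K against WT (red) and H1047R against WT (blue). RYR1 lies at 1.29 and −8.14, RND3 at 1.36 and −1.13, FSIP1 at 1.12 and −2.62 with THBS1 at 1.21 and −2.83, and MYH14 at 5.05 and 1.76.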

How the data were processed

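RNA of 9 MCF-10A libraries was depleted of ribosomal RNA and sequenced as paired 150 bp reads, per the labels' protocols. The authors deposited raw gene counts in 2 tables of 60609 genes. Per the file headers, featureCounts 2.0.0 counted reads over exons of GENCODE 32 on hg38, without strand, with each mate counted singly and a read counted for every gene it overlaps. The submitters' processing notes name STAR, SAMtools 1.5, FastQC, cutadapt and Trim Galore 0.4.0 without settings. Of the identifiers, 60295 matched GENCODE 44 names without version and 314 did not.

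Counts were tested with edgeR 4.0.16 (R 4.3.3): filterByExpr, then TMM scaling and a quasi-likelihood fit with 1 coefficient per genotype to the 9 libraries. P-values were adjusted by Benjamini-Hochberg over 26412 genes, with calls at an adjusted p under 0.05. The procedure was run on simulated data that gave each gene the same spread in all genotypes. That setting leaves out the wider spread among H1047R libraries. SE is the size of the log2 fold change divided by the square root of the F statistic and can be too small near 0 counts. A count of 0 allows 3 counts, or 0.00495 to 0.0315 CPM, for counting error only, since reads carry no molecular identifiers. Both mates of a fragment can each add a count, so counts are not independent and this bound can be too narrow. Nothing in the labels ties a replicate to its own culture, and the p-values therefore rest on variation among libraries that could be technical. Pooling the spread is lenient for comparisons with H1047R. Overlapping genes, antisense genes and close gene copies share reads.

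The 4 genes and the 6 gene lists were chosen with earlier results of these data known. Named genes were PIK3CA, the 4 genes, their paralogs, up to 3 called genes per list, comparison and direction with at least 1 CPM in the higher genotype (of which the larger part is printed), the overlapping and 2 nearest protein-coding genes on each side, and the 5 genes most alike by Pearson's r of log2 CPM with a prior count of 0.5. Other genes are named as examples of a partner role. Alternatives were other scalings (DESeq2's size factors, upper quartile, library totals), other filters, DESeq2 1.42.0, fewer genotypes or genes, thinned H1047R counts, a replicate block and leaving out each library. A few genes that this rule names are not reported here.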

Additional observations from a re-analysis of the deposited data

How the results depend on the processing

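The counts of calls were 9663 for E545K against WT, 14040 for E545K against H1047R and 14651 for H1047R against WT, and ranged over 19 alternatives from 7979 to 12585, 10738 to 15295 and 11005 to 16140. With library totals alone, 66.1% of calls in E545K against WT were higher, beside 48.3% with TMM scaling, and 66.8% in E545K against H1047R, beside 51.3%. The median of all genes then moved to 0.10 and 0.12, from 0.00 and −0.02. All 4 genes kept their direction under every alternative. Log2 differences in E545K against WT ranged from 1.27 to 1.38 for RYR1, 1.35 to 1.45 for RND3, 1.08 to 1.21 for FSIP1 and 4.74 to 6.18 for MYH14. In H1047R against WT they ranged from −8.34 to −7.61, −1.17 to −1.06, −2.66 to −2.55 and 1.45 to 2.89, with largest adjusted p (edgeR or DESeq2) of 9e-12, 3.41e-09, 5.63e-10 and 0.00424. With H1047R thinned to the depth of the other libraries, RYR1 in E545K against H1047R was 8.90 in place of 9.43.

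Replicate numbers are shared between genotypes, but libraries with the same number correlated from −0.124 to 0.124 in their deviations and are not paired by the labels. A replicate block gave 9441, 13731 and 14394 calls. The alternatives for the gene lists were added after seeing the data: 646 of their counts moved by no more than 1.5 times and 38 by more, most of them counts of 3 or fewer. With a filter of 1 CPM in 3 libraries, the 7 muscle myosins lower in H1047R than in WT became 0, since 1 gene was left to test. With library totals, the RND3 partners higher in E545K than in WT numbered 4 in place of 2. With 22 and 24 counts of MYH14 in WT replicates 2 and 3, and 0 to 36 counts per genotype of 6 muscle myosin genes, counting error bears most on these values.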
